A study of Mus musculus with 14 samples.

Results

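The baseline transcriptome of control aortic intima, the innermost layer of the aortic wall, was described from the 8 RNA-seq libraries of the series that carried no progerin, out of 14 libraries in all. A gene was taken as part of this transcriptome when its mean level over those 8 libraries was at least 1 CPM (counts scaled to a library total of 1000000), and 12165 of the 22430 genes in the count table met that level (54.2%). The wild-type control group (4 libraries) came from Apoe-/-Lmna+/+ mice, which make both lamin A and lamin C. The lamin C-only control group (4 libraries) came from Apoe-/-LmnaLCS/LCS mice, which make lamin C and no lamin A. All animals of both groups therefore lacked functional Apoe, so no library stands for a mouse with normal lipoprotein clearance, and the age and sex of the mice were not given in the sources used here. Each library was a separate pool of 12 to 14 mice of 1 genotype, made by running a lysis reagent along the lumen of the thoracic aorta, and the 6 progerin libraries were not used here. The genotypes were not compared: genes were described by level, and by the spread of the pools around the mean of their own genotype.

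The arterial intima consists of a single sheet of endothelial cells on a basement membrane and an internal elastic lamina, and it faces the smooth muscle of the media. Endothelial cells hold blood inside the vessel, keep it from clotting, release vasodilator and vasoconstrictor signals, and regulate the entry of leukocytes through adhesion molecules. In mice without Apoe, cholesterol-rich lipoproteins accumulate under this sheet and monocytes turn into lipid-laden macrophages there, while fibroblasts and adipocytes normally lie on the outer side of the wall. A bulk lysate mixes all of these, and in such data fewer cells of a type and less RNA per cell cannot be told apart.

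The DNA just upstream of 3 genes is shown because each stands for a pattern described here: the most abundant nuclear transcript per unit of length, and a macrophage gene and an adipocyte gene among the 20 genes of highest spread between pools. Each sequence is the 250 bases before the RefSeq start of the gene on GRCm38.p6, 5′ to 3′ on the plus strand, at chr5:37735269-37735518 for Cytl1, chr6:49036268-49036517 for Gpnmb and chr16:23146286-23146535 for Adipoq. Capitals mark matches, on either strand, to 4 short motifs: the ETS core GGAAG (or CTTCC), bound by ETS factors such as Erg, the M-box TCATGTG (or CACATGA), the TATA box TATAAA (or TTTATA), and the CCAAT box CCAAT (or ATTGG).
Cytl1: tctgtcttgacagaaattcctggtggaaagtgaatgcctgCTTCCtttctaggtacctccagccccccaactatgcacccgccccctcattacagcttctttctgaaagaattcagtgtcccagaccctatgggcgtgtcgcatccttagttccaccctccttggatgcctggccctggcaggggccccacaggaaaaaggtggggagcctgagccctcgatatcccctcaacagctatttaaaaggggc
Gpnmb: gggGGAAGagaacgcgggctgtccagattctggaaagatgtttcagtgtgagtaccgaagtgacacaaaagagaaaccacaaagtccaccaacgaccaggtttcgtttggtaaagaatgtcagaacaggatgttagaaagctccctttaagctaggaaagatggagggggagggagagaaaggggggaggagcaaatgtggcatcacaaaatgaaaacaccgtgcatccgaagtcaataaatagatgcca
Adipoq: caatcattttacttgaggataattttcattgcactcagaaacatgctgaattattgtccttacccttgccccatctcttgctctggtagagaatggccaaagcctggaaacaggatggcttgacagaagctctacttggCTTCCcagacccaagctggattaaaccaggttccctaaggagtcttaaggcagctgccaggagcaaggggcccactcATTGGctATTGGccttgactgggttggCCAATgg
Each window held 1 ETS core, and the Adipoq window also held 3 CCAAT boxes. Of 32851 RefSeq windows of the same length, 64.1% held at least 1 ETS core, which is therefore the common case. An M-box was held by 3.25%, a TATA box by 12.4% and a CCAAT box by 33.8%. RefSeq windows were matched for 12 of the 24 pan-endothelial marker genes listed here, and 10 of those 12 held an ETS core. A match describes letters in the window and not a bound site.

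The libraries held 28242615 to 35692378 estimated counts. Of the members, 9221 averaged at least 10 CPM, 2036 at least 100 CPM and 98 at least 1000 CPM. Those 98 genes took 24% of all counts and the 1938 genes between 100 and 1000 CPM took 46.3%, while the 2944 genes between 1 and 10 CPM took 1.31%. The median member lay at 29.1 CPM. At the other end of the table, 5175 genes had no count in any of the 8 libraries, where the limit that a count of 0 allows is 0.0823 to 0.108 CPM for a single library (3 counts, counting error only). The choice of level was not sharp at its edge: 11522 genes reached 1 CPM in every library, 643 members fell below it in at least 1 library, and 704 genes outside the set reached it in at least 1. Just inside the limit were Ndor1.2 at 1.004 CPM, Klhdc9 at 1.003 CPM and Tmod1 at 1.003 CPM, and just outside were Vmn1r203 at 0.9998 CPM, Bbof1 at 0.9992 CPM and Hook1 at 0.9992 CPM. Of these Ndor1.2, whose exons all coincide with those of other Ndor1 entries, owed its mean to wild-type control pool 1, with 6.776 CPM there and 0 in 5 of the other 7 pools.

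Wild-type control pool 1 stood apart in breadth. It had counts for 14328 genes, against 15135 to 15452 in the other 7 pools. Counted in every other pool and at 0 in that pool were 311 genes, where the same number for each of the other pools was 18 to 58. Those 311 genes were weakly expressed, with a median of 0.233 CPM, and 13 of them were members. Without that pool 12162 genes reached the level. It also had the smallest total, and whether that bears on the missing genes was not tested.

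The most abundant nuclear transcript per unit of length was Cytl1, which encodes a small secreted cytokine-like protein (ENSMUSG00000062329, chromosome 5, 37735519 to 37739820). Levels of different genes are compared as TPM, for which counts were divided by the length of the merged exons and scaled to a total of 1000000 per library. Cytl1 ran from 22838 to 25008 TPM with a median of 23799. Its counts were 7709, 7673, 7382 and 7978 CPM in wild-type control pools 1 to 4 and 7552, 7771, 6905 and 7362 CPM in lamin C-only control pools 1 to 4, a ratio of 1.16 between the highest and the lowest pool. It was followed by Eef1a1, a translation elongation factor, at 9209 to 10463 TPM, by Pecam1, the adhesion molecule CD31 of endothelial junctions, at 5914 to 6617 TPM, and by Mgp, the matrix Gla protein that inhibits vascular calcification, at 4857 to 5738 TPM. The ranges of these 4 genes did not overlap one another.

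From Tpt1, the translationally controlled tumour protein, at 4417 to 4757 TPM, the ranges of neighbours in the order overlapped at nearly every step. The exception was between Cpe, which processes peptide hormones, at 3850 to 4434 TPM, and Ltbp4, which holds latent TGF-beta in elastic fibres, at 3372 to 3776 TPM. Several of the 25 most abundant genes encode secreted or matrix proteins. Among them were Cst3, the protease inhibitor cystatin C, at a median of 4142 TPM, Clu, the extracellular chaperone clusterin, at 4200 TPM, and Bgn, the proteoglycan biglycan, at 3134 TPM. Antigen presentation was represented by B2m, the light chain of MHC class I, at 4034 TPM and H2-D1, a class I heavy chain, at 2902 TPM. Membrane and vessel genes included Tm4sf1, a tetraspanin-like protein, at 2745 TPM, Cav1, the coat protein of caveolae, at 2578 TPM, and Ace, which makes angiotensin II, at 2501 TPM. Epas1, the gene of a hypoxia-inducible transcription factor, lay at 1910 TPM. Further genes of this order were Tmsb4x, Serinc3, Vim, Itm2b, Eef2, Ubb, Ftl1 and Psap, with medians between 2049 and 2998 TPM.

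The order was alike in the 8 pools, since 24 of the 25 genes were among the 25 most abundant in every library. It did depend on length: with the median transcript length of each gene in place of the merged exons, 14 of the 25 stayed among the 25, and with CPM and no length 17 stayed. Pecam1, a long transcript, took 1.12 to 1.22% of all counts in a library, and Cytl1, a short one, 0.705 to 0.783%. The 13 mitochondrially encoded genes, left out of this order, made up 13 to 19.3% of TPM and 3.53 to 5.42% of counts. The 79 cytosolic ribosomal protein genes, also left out, made up 9.46 to 10.2% of TPM. Eef1a1, Tpt1, Tmsb4x, Ubb, Ftl1 and the ribosomal protein genes have processed pseudogenes and H2-D1 has close paralogs, and RSEM divides the reads they share, so their levels are uncertain.

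**Figure D1:**
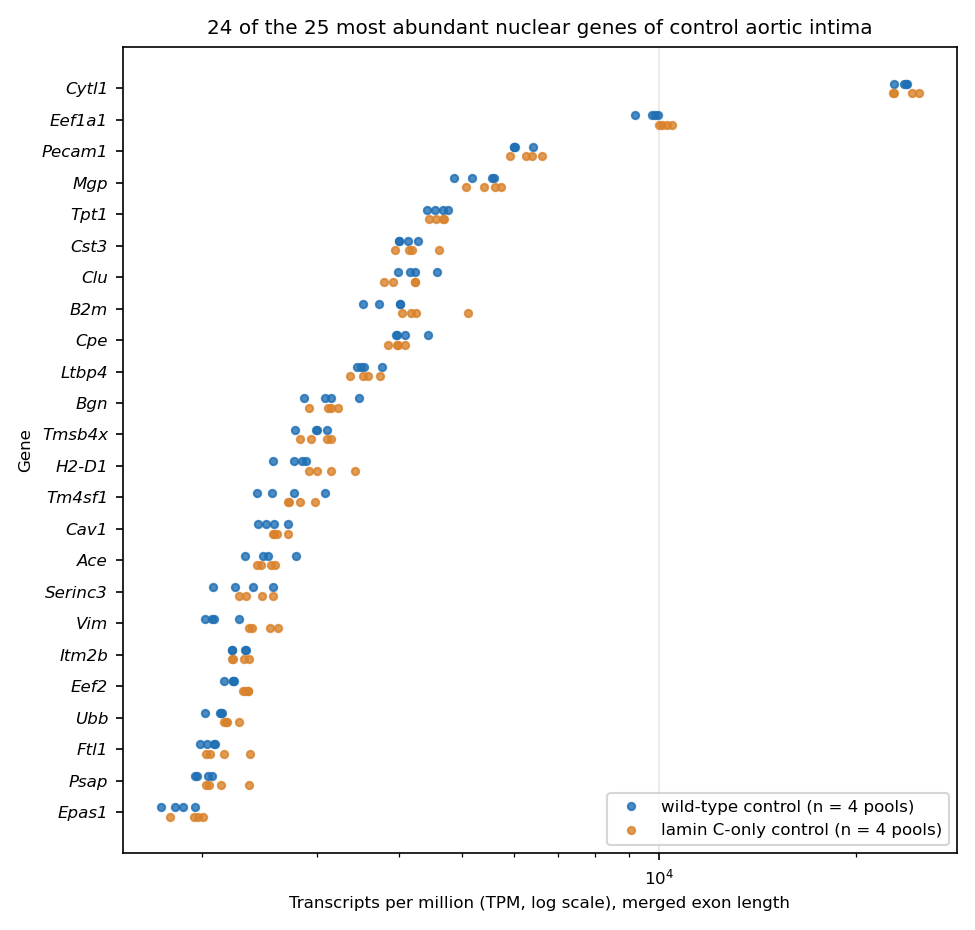
Level of 24 of the 25 most abundant nuclear genes in TPM (log axis), 1 point per pool, blue for the 4 wild-type control pools and orange for the 4 lamin C-only control pools. Cytl1 lies between 22838 and 25008 TPM, and Epas1, the last of the 25, between 1730 and 2012 TPM.

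The labelled tissue was checked against endothelial markers. All 24 pan-endothelial markers were members, 20 of them at 100 CPM or above, with a median of 574 TPM, against 54.2% of all genes at the 1 CPM level and a median of 20.8 TPM over all members. Their summed level was 33121 to 36368 CPM, or 3.32 to 3.6% of counts, and the highest pool was 1.1 times the lowest. Pecam1 (ENSMUSG00000020717, chromosome 11, 106654217 to 106750628) gave 12335, 11396, 11417 and 11828 CPM in wild-type control pools 1 to 4 and 12076, 11715, 11180 and 11203 CPM in lamin C-only control pools 1 to 4. No pool lay more than a ratio of 1.1 from another. Vwf, the clotting factor stored in endothelial granules, had a median of 1481 TPM, Cldn5, a tight junction claudin, 1316 TPM, and Ptprb, a phosphatase that acts on Tek, 1229 TPM. Cdh5, the cadherin of endothelial adherens junctions, lay at 874.5 TPM and Nos3, the endothelial nitric oxide synthase, at 943 TPM.

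The receptors of endothelial growth factors were expressed at very unequal levels. Tek, the receptor of the angiopoietins, had a median of 883.8 TPM and its partner Tie1 615.2 TPM. By contrast Kdr, the main signalling receptor of VEGF-A, had 3.168 TPM, and Flt1, the high-affinity VEGF receptor that mostly acts as a trap, had 14.17 TPM. In CPM, Kdr measured 9.823, 9.37, 7.608 and 9.261 in wild-type control pools 1 to 4 and 7.144, 7.324, 8.148 and 8.744 in lamin C-only control pools 1 to 4. It was low in all 8 pools, and with 2145 counts in total it was well above the counting limit. Flt4, the VEGF-C receptor best known from lymphatic vessels, had 28.36 TPM, above both in every library. Robo4, an endothelial guidance receptor, was also low at 8.189 TPM. Of the 13 genes of the VEGF, angiopoietin and Tie list all were members, beside 54.2% of all genes. The ligand Vegfa lay at 181.7 TPM and Vegfc at 46.86 TPM, whereas Angpt1 and Angpt2, the ligands of Tek, lay at 6.749 and 3.11 TPM.

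Arterial identity genes were present throughout: all 16 were members, beside 54.2% of all genes. Of the 16, 12 were at 100 CPM or above, and the list summed to 3829 to 4165 CPM. Bmx, an arterial endothelial kinase, had a median of 602.1 TPM, Edn1, the vasoconstrictor endothelin-1, 601.6 TPM, the gap junction genes Gja5 and Gja4, for connexins 40 and 37, 550.8 and 439.2 TPM, and Gkn3, a secreted gastrokine of arterial endothelium, 415.9 TPM. Bmx was among the steadier of these, at 542.5 to 575.7 CPM over the 8 pools. The Notch target Hey2 lay at 183.3 TPM but the related Hey1 at 7.85 TPM. Within the connexins, Gja1, for connexin 43, was nearly absent, with 0.479 to 3.177 CPM, while Gjc1, for connexin 45, had 40.07 to 46.08 CPM. Notch1 and Notch4, the endothelial Notch receptors, had 109.5 and 157.3 TPM, and Notch3, the receptor of smooth muscle and pericytes, 0.7055 TPM.

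Markers of other vessel beds were mixed, and single genes of each list stood far above the rest. As 54.2% of all genes were members, the counts of members in these short lists say little. Of 11 capillary markers 7 were members and only Plvap, a protein of fenestral diaphragms, at 760 TPM, and Fabp4, a fatty acid carrier of capillary endothelium and adipocytes, at 106 TPM, exceeded 100 CPM. Gpihbp1, the capillary anchor of lipoprotein lipase, had 0.9144 TPM. Of 6 venous markers 4 were members. Selp, the P-selectin stored with Vwf, reached 310.2 TPM and Ephb4, a receptor of venous endothelium, 132.8 TPM, but Nr2f2, the transcription factor of venous identity, had 0.3866 TPM and Ackr1, a chemokine receptor of venules, 12 counts in all 8 libraries together. Of 7 lymphatic markers 3 were members, Flt4 foremost, and Prox1, the master regulator of lymphatic identity, had 0 to 0.7549 CPM.

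**Figure D2:**
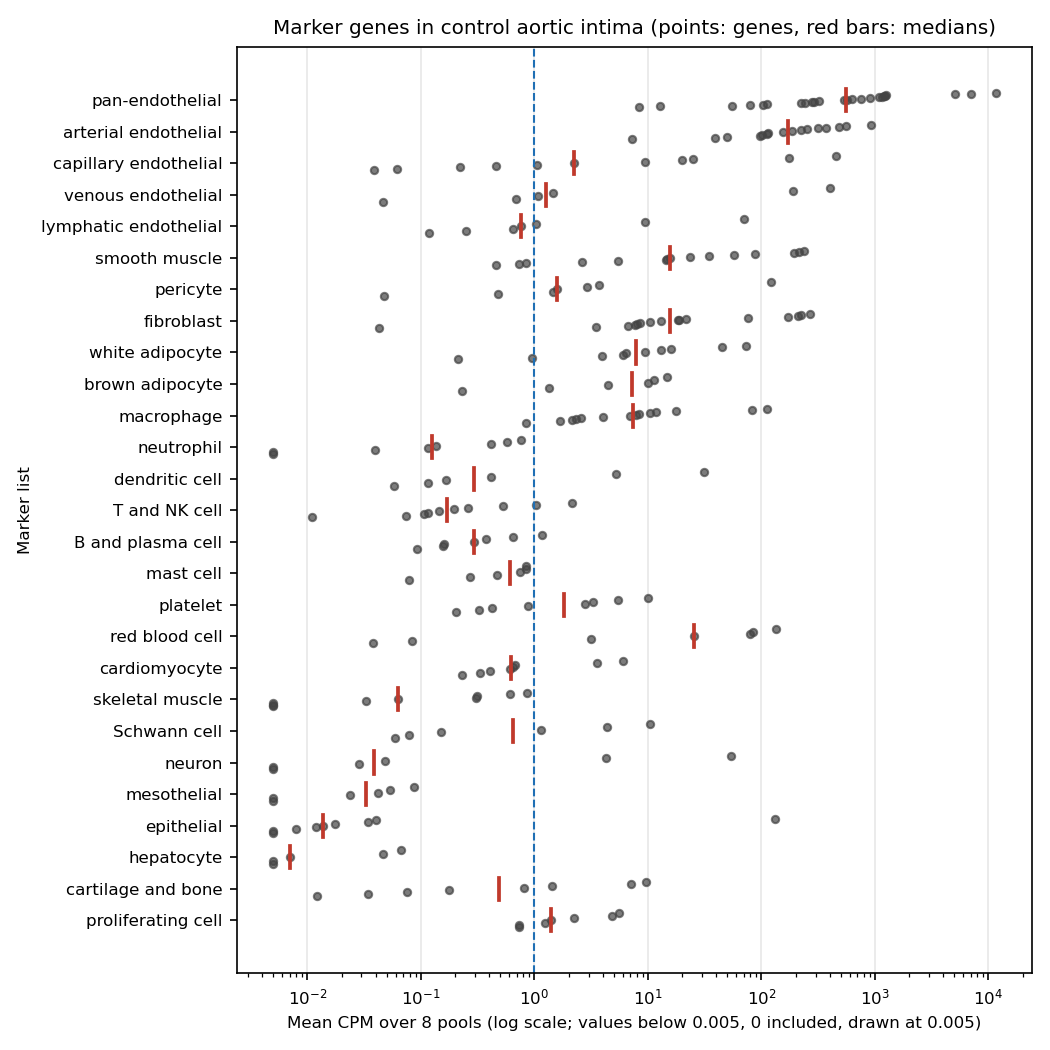
Mean level over the 8 pools in CPM (log axis) of each marker gene, 1 point per gene and 1 row per list, with red bars for list medians and a dashed line at 1 CPM. All 24 pan-endothelial and 16 arterial markers lie to the right of the line, and no neutrophil, mast cell, skeletal muscle, mesothelial or hepatocyte marker does.

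The endothelial transcription factor list had 27 of 30 members at 1 CPM or above, beside 54.2% of all genes. At 100 CPM or above were 14 of the list. The flow-induced factors Klf2 and Klf4 had medians of 647.5 and 364.6 TPM, and Sox18, Sox17 and the ETS factor Erg 565.4, 172.5 and 268.6 TPM. Klf2 measured 332.4, 339.2, 318.3 and 468.6 CPM in wild-type control pools 1 to 4 and 349.3, 458.3, 343.5 and 404.6 CPM in lamin C-only control pools 1 to 4, so wild-type control pool 4 and lamin C-only control pool 2 were the highest. Twist1, a factor best known from mesenchymal cells, was at 278.7 TPM, close to Erg, with 117.1 to 152.4 CPM over the pools. Other regulators of mesenchymal transition were lower, with Zeb1 at 31.48 TPM, Snai2 at 11.34 TPM and Snai1 at 0.6613 TPM.

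Vasoactive genes fell into high and nearly absent ones. Of the 16 listed, 12 were members, beside 54.2% of all genes, and 10 were at 100 CPM or above. Ece1, which cuts the endothelin precursor, had 1545 TPM, Ramp2 and Calcrl, the subunits of the adrenomedullin receptor, 1021 and 197.5 TPM, and Npr1, a natriuretic peptide receptor, 416 TPM. Adm, the ligand of that Ramp2 and Calcrl receptor, had 0.2191 to 1.864 CPM, and Ednrb, the endothelin receptor usually placed on endothelium, 0.3969 to 3.145 CPM. Ramp2 shares 33.4% of its exonic bases with Vps25, so part of its level is uncertain. In the haemostasis list 12 of 13 genes were members, with the anticoagulant receptors Procr and Thbd at 515.5 and 462.7 TPM and F3, the tissue factor that starts clotting, at 2.245 TPM. F3 was 9.279 CPM in lamin C-only control pool 4 and 1.042 to 2.382 CPM elsewhere.

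Leukocyte adhesion molecules were well expressed in these Apoe-deficient intimas. Of 11 listed genes 10 were at 1 CPM or above, beside 54.2% of all genes. The medians were 560.8 TPM for Icam2, 420 TPM for Vcam1, which captures monocytes, 345.3 TPM for Icam1 and 310.2 TPM for Selp. Vcam1 ran from 983.8 to 1227 CPM, a ratio of 1.25. Sele, the cytokine-induced E-selectin, was lower at 25.49 TPM, and the monocyte chemoattractant Ccl2 had 0 to 0.43 CPM, below 1 CPM in every pool. Among scavenger receptors and lipid genes Stab1 had 530.6 TPM and its paralog Stab2, a receptor of liver sinusoids, 0.06748 TPM, with Stab2 at 0 to 1.033 CPM over the pools. Apoe, the disrupted gene, still gave 56.68 to 72.88 CPM, and a total per gene cannot show which of its exons gave those reads.

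All 18 basement membrane genes were members, beside 54.2% of all genes. Lamb2, a laminin chain, had 567.1 TPM, Hspg2, the heparan sulphate proteoglycan perlecan, 396.6 TPM and Col4a1, a chain of the common type IV collagen, 353.7 TPM. Col4a4 and Col4a3, chains best known from kidney glomeruli, had 122.2 and 77.81 TPM, with Col4a4 at 325.4 to 438.1 CPM in the 8 pools. Eln, the elastin gene, had a median of 1568 TPM and 2766 to 4240 CPM. It was lowest in wild-type control pool 1, at 2766 CPM, and lamin C-only control pool 1, at 3076 CPM, and the other 6 pools lay between 3819 and 4240 CPM. The 14 nuclear lamina genes were all at 10 CPM or above. Lmna had 71.8 TPM, Lmnb1, for lamin B1, 17.59 TPM and Lmnb2, for lamin B2, 8.244 TPM. Lamins A and C both come from Lmna, and its total does not tell them apart.

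Hox genes, which carry positional identity along the body axis, were expressed up to a given member of the Hoxa, Hoxb and Hoxd clusters. Not every listed gene before that member averaged 1 CPM. Of 39 listed genes 21 were members, beside 54.2% of all genes, and 8 had no count in any library. In the Hoxa cluster levels reached to Hoxa10, at 25.67 to 30.59 CPM, while Hoxa11 averaged 0.2056 CPM. In the Hoxb cluster they reached to Hoxb9, at 32.64 to 45.1 CPM, and Hoxb13 was at 0. In the Hoxd cluster they reached to Hoxd9, at 4.247 to 7.188 CPM, and Hoxd10 averaged 0.3091 CPM. No gene of the Hoxc cluster averaged 1 CPM, the highest being Hoxc8 at 0.387 CPM and Hoxc6 at 0.3447 CPM, both highest in lamin C-only control pool 4 at 1.101 and 1.007 CPM. Hoxd3 and Hoxd4 share 62.3 and 52.3% of their exonic bases with neighbours, and their levels are uncertain.

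Traces of other cells were sought with 208 markers of 25 lists, the other vessel types included. Of these 102 were members (49%, beside 54.2% of all genes), 15 were at 100 CPM or above and 11 had no count in any library. No marker of neutrophils, mast cells, skeletal muscle, mesothelium or hepatocytes averaged 1 CPM. The 11 without a count were Mpo and Elane of neutrophils, Myh1, Myh2 and Myh4 of skeletal muscle, Th and Dbh of sympathetic neurons, Wt1 of mesothelium, Epcam and Krt5 of epithelium and Ttr of hepatocytes. T, NK and B cell markers were near the floor, with list medians of 0.171 and 0.293 CPM, and sums of 3.162 to 6.008 and 1.779 to 4.947 CPM.

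Markers of smooth muscle, the layer below the intima, were present, and which cells gave this RNA was not tested. Of 15 markers 12 were members, beside 54.2% of all genes. The sum was 750 to 1236 CPM, with wild-type control pool 2 highest and lamin C-only control pool 3 lowest. The actin gene Acta2 measured 213.8, 321.7, 166 and 160.2 CPM in wild-type control pools 1 to 4 and 205.2, 162.6, 132.5 and 198.7 CPM in lamin C-only control pools 1 to 4. Tagln, the actin-binding protein SM22, followed the same order at both ends, from 167 to 364.5 CPM. Markers held to be stricter were lower, with Myh11, the smooth muscle myosin, at 8.75 to 28.69 CPM, Cnn1, calponin, at 2.58 to 14.17 CPM, and Myocd, the master coactivator, at 0.1277 to 0.8604 CPM. Wild-type control pool 2 was again the highest for Myh11 and Cnn1, but not for Myocd. Cald1, caldesmon, which endothelial cells make as well, did not follow this order and stayed at 207.5 to 227.8 CPM.

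Fibroblast markers were members in 15 of 16 cases, beside 54.2% of all genes, and summed to 926 to 1359 CPM. The highest 2, Mfap5, a microfibril protein, at a median of 246.7 TPM, and Pi16, a marker of adventitial fibroblasts, at 120.3 TPM, varied little, with 248.6 to 308 and 196 to 242.3 CPM. Dcn, the proteoglycan decorin, varied more: 206.6, 161.1, 202.6 and 140.2 CPM in wild-type control pools 1 to 4 and 110.5, 125.7, 127.8 and 303.6 CPM in lamin C-only control pools 1 to 4. Lamin C-only control pool 4 was the highest for Dcn and for the list. Pdgfra, the growth factor receptor of fibroblasts, had 5.102 to 8.402 CPM. Pdgfrb, a pericyte and fibroblast receptor, was at 100.1 to 135.6 CPM, while the other 6 pericyte markers averaged under 4 CPM.

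Adipocyte markers differed between pools, chiefly through 1 pool. Of 10 white adipocyte markers 8 were members, beside 54.2% of all genes. The list summed to 99.85, 102.1, 146.4 and 134.7 CPM in wild-type control pools 1 to 4. In lamin C-only control pools 1 to 4 the sums were 183, 86.23, 140.8 and 500.7 CPM. Lamin C-only control pool 4 was 3.63 times the median pool, and without it the sums ran from 86.23 to 183 CPM. Brown adipocyte markers, 5 of 6 of which were members, had sums of 19.72 to 46.17 CPM in 7 pools and 88.61 CPM in the same pool. Ucp1, which uncouples brown fat mitochondria, was at 5.258 to 16.65 CPM and was highest in lamin C-only control pool 3, not pool 4.

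Macrophage markers were members in 13 of 14 cases, beside 54.2% of all genes, with sums of 212.9 to 392.4 CPM. Lamin C-only control pool 2 was highest and pool 1 lowest. The list was led by Mertk, an engulfment receptor, at 99.47 to 125.9 CPM, which did not follow this order, and by Lyz2, lysozyme. Lyz2 was highest and lowest in the same pools as the sum, but it makes up a large part of that sum. Lyz2 measured 97.3, 81.09, 64.63 and 39.92 CPM in wild-type control pools 1 to 4 and 33.66, 172.1, 100 and 73.98 CPM in lamin C-only control pools 1 to 4. The list median was 7.44 CPM, and Csf1r, Cd68 and C1qb averaged 6.97, 7.904 and 17.63 CPM. Adgre1, the F4/80 antigen, was lower at 1.323 to 3.145 CPM. So was Itgam, a leukocyte integrin that shares 68.7% of its exonic bases with another gene, at 1.158 to 2.545 CPM. Itgam was highest in wild-type control pool 1 and not in the pool with the highest sum. The 4 MHC class II genes summed to 157.9 to 251.8 CPM in 7 pools and to 435.7 CPM in lamin C-only control pool 3, a different pool from those that led the adipocyte and macrophage lists.

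Globin RNA was present in all pools, although the labels' protocols describe perfusion. The red blood cell list summed to 126.3 CPM in wild-type control pool 3 and 590.3 CPM in lamin C-only control pool 2, with 262.9 to 372.5 CPM in the other 6 pools. The alpha-globin genes Hba-a1 and Hba-a2 are near-identical, so their division is uncertain. Proliferation markers were low. Of 7 listed 5 were members, beside 54.2% of all genes, and Mki67, a protein of dividing cells, had 2.481 to 8.712 CPM. The 4 Y-linked genes listed were all members and summed to 62.48 to 154.6 CPM, lowest in wild-type control pool 2 and highest in lamin C-only control pool 4, so no pool was free of Y-linked RNA.

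In several lists a single marker stood alone. Clec9a, a receptor used to mark dendritic cells, was at 25.66 to 37.68 CPM while Flt3 and Xcr1 of the same list averaged 0.1678 and 0.0577 CPM. Krt18, a keratin of simple epithelia, was at 100.4 to 149 CPM with Epcam at 0. Uchl1, a deubiquitinase of neurons, was at 44.44 to 64.32 CPM with Th and Dbh at 0. S100b, used for Schwann cells, averaged 10.49 CPM with Sox10 at 0.05914 CPM. The spread of Clec9a, Krt18 and Uchl1 between pools was 0.172, 0.174 and 0.156, as the SD of log2 CPM within genotype.

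**Figure D3:**
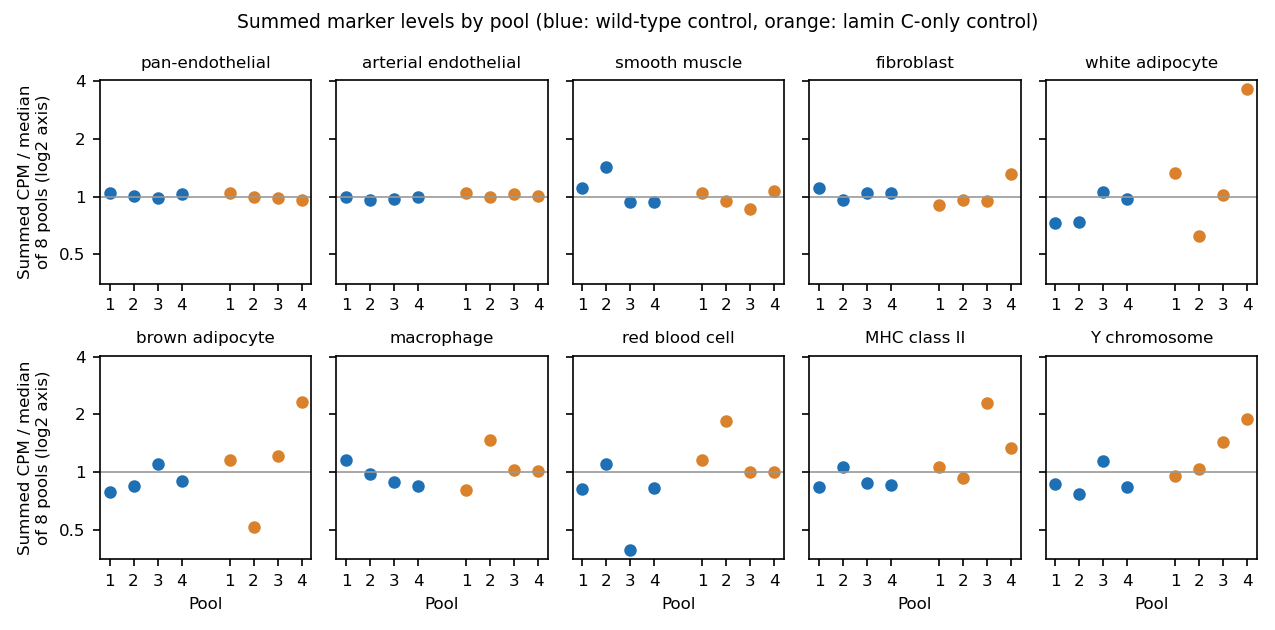
Summed CPM of 10 marker lists in each pool, divided by the median of the 8 pools (log2 axis), blue for wild-type control pools and orange for lamin C-only control pools. The pan-endothelial ratio stays between 0.958 and 1.05, while the white adipocyte ratio reaches 3.63 in lamin C-only control pool 4, the MHC class II ratio 2.3 in lamin C-only control pool 3 and the red blood cell ratio 0.394 in wild-type control pool 3.

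Spread between pools was measured as the standard deviation (SD) of log2 CPM around the mean of each genotype, pooled over both genotypes with 6 degrees of freedom, for the 9221 genes averaging at least 10 CPM. Each such SD has a 95% interval from 0.644 to 2.2 times its value. The median spread was 0.105, beside a median of 0.0383 from counting error alone. It was 0.113 for genes of 10 to 100 CPM, 0.0796 for those of 100 to 1000 CPM and 0.089 above that. The 99th percentile was 0.402, 59 genes (0.64%) exceeded 0.5 and 5 exceeded 1, while 90 genes (0.976%) lay below their own counting error. Computed within each genotype, the median was 0.108 in the wild-type pools and 0.0892 in the lamin C-only pools. Wild-type control pool 1 lay furthest from its genotype mean. Its median absolute log2 deviation was 0.0882, against 0.0559 to 0.0698 in the other pools. Without that pool the median spread over both genotypes was 0.0954. High spread tended to recur between genotypes: of the 100 genes of highest spread in the wild-type pools, 70 were in the top 10% of the lamin C-only pools, and 73 in the opposite direction. Low spread recurred less sharply, with 77 and 66 of the 100 lowest genes below the median of the other genotype.

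**Figure D4:**
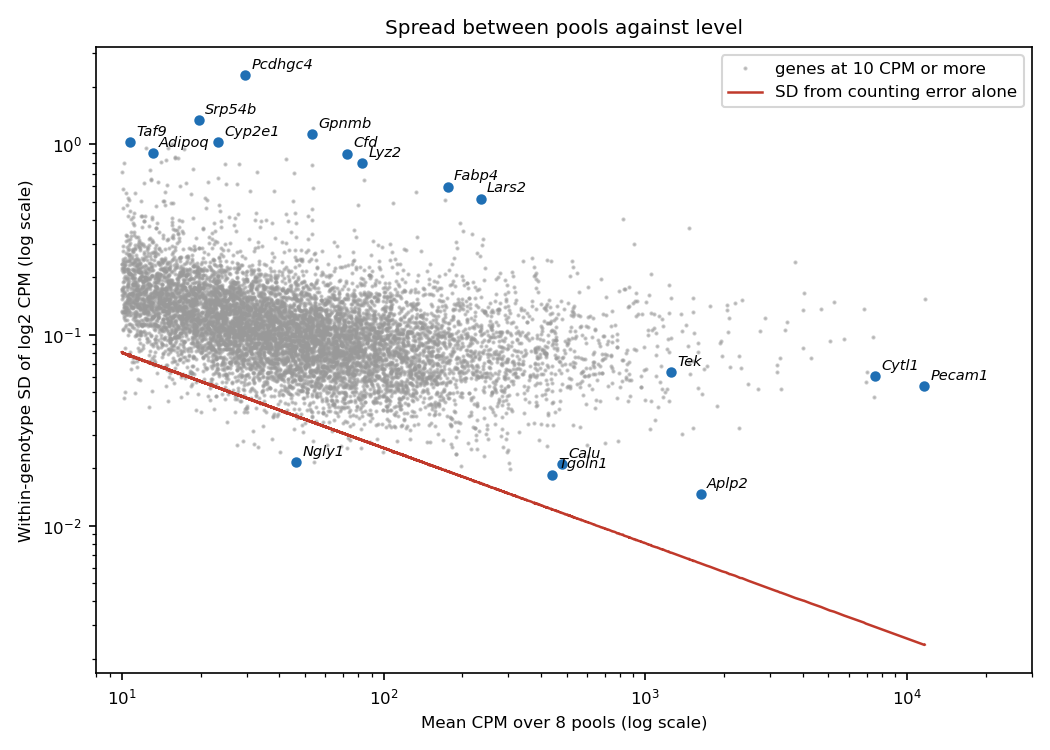
Within-genotype SD of log2 CPM (log axis) against mean CPM (log axis) for the 9221 genes at 10 CPM or more, with named genes in blue and a red line for the SD from counting error alone. Pcdhgc4 is the highest at 2.29, Aplp2 the lowest at 0.0147, and Pecam1 and Cytl1 have the largest means of the named genes.

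The pan-endothelial markers varied about as much as other genes of their level. The 23 with at least 10 CPM had spreads of 0.0433 to 0.267 with a median of 0.0881, and none exceeded 0.5. Most of them lay at 100 CPM or above, where the medians over all genes were 0.0796 up to 1000 CPM and 0.089 above that. The 15 arterial markers with at least 10 CPM had a median of 0.14. Of the 48 markers of other cell and vessel types at that level, 19 exceeded 0.5 (39.6%, beside 0.64% of all genes), among them adipocyte, macrophage, fibroblast and globin genes. The largest value among the 23 was that of Flt1, and among the arterial genes Edn1 had 0.252. Edn1 measured 408.5, 407.9, 404.8 and 273.5 CPM in wild-type control pools 1 to 4 and 427, 300.9, 355.4 and 379.8 CPM in lamin C-only control pools 1 to 4.

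The 20 genes of highest spread are described in 3 sets. In the largest, of 11 genes, every gene was highest in lamin C-only control pool 4. It held Adipoq, the adipocyte hormone adiponectin, Cfd, the adipocyte protease adipsin, Cidec and Cidea, proteins of lipid droplets, Pck1 of glycerol and glucose synthesis, the enzymes Cyp2e1, Ces1d, Inmt and Gpx3, the haemoglobin-binding protein Hp, and Chchd10 of mitochondria. Adipoq (ENSMUSG00000022878, chromosome 16, 23146536 to 23158028) measured 9.895, 6.776, 10.09 and 10.92 CPM in wild-type control pools 1 to 4 and 12.96, 4.945, 10.4 and 39.1 CPM in lamin C-only control pools 1 to 4. Its upstream window was the one with 3 CCAAT boxes. Cfd measured 36.14, 42.96, 57.29 and 58.05 CPM and then 68.67, 33.27, 50.07 and 236 CPM in the same order. Both were highest in lamin C-only control pool 4 and lowest in lamin C-only control pool 2. Without lamin C-only control pool 4 the spread fell from 0.895 to 0.514 for Adipoq, from 0.893 to 0.42 for Cfd, from 1.03 to 0.457 for Cyp2e1 and from 0.857 to 0.242 for Inmt, and 10 of the 20 genes stayed among the 20. Of all 59 genes above 0.5, 20 were led by that pool and all 20 were high in it, 6 of them in the adipocyte lists.

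The second set comprised 5 macrophage genes, Gpnmb, Spp1, Mmp12, Lyz2 and Ctss, that were high in lamin C-only control pool 2. Gpnmb, a glycoprotein of lipid-laden macrophages (ENSMUSG00000029816, chromosome 6, 49036546 to 49070929), measured 52.2, 26.26, 52.23 and 29 CPM in wild-type control pools 1 to 4 and 15.08, 151.6, 74.84 and 24.88 CPM in lamin C-only control pools 1 to 4. Its highest pool was 10.1 times its lowest, and its spread of 1.13 was the third highest of the 20. Ctss, the lysosomal protease cathepsin S, had 64.38 CPM in the same pool and 11.52 to 30.54 CPM elsewhere. Mmp12, a macrophage elastase, had 28.39 CPM there and 22.44 CPM in lamin C-only control pool 3, while Spp1, osteopontin, was nearly equal in these pools at 23.69 and 25.02 CPM and had 4.8 and 5.19 CPM in lamin C-only control pools 1 and 4. In lamin C-only control pool 4, where the adipocyte set was highest, these 5 genes all lay below the mean of their genotype. The log2 deviations there ran from -1.08 for Spp1 to -0.13 for Lyz2. This was not so in every pool. In wild-type control pool 3 Gpnmb, Spp1, Mmp12 and Ctss lay above that mean, by 0.055 to 0.535, while Lyz2 was at -0.056. Ces1d and Adipoq of the adipocyte set were up there as well, by 0.802 and 0.121. Of the 13 genes above 0.5 led by lamin C-only control pool 2, 7 were high and 6 low in it.

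The third set comprised 4 genes, Pcdhgc4, Srp54b, Taf9 and Ak6, that had their lowest or highest value in wild-type control pool 1. Pcdhgc4, a clustered protocadherin, measured 0.6095, 37.64, 51.54 and 33.69 CPM in wild-type control pools 1 to 4 and 5.845, 43.79, 29.55 and 34.06 CPM in lamin C-only control pools 1 to 4. It was low in pool 1 of each genotype, shares 37.9% of its exonic bases with other protocadherin genes, and had a spread of 1.04 without wild-type control pool 1 and 1.22 with the pool number removed as well as genotype. Srp54b, a subunit of the signal recognition particle with near-identical copies, had 3.549 CPM in wild-type control pool 1, 5.958 CPM in lamin C-only control pool 1 and 8.721 to 46.26 CPM elsewhere. Taf9, a transcription factor subunit, and Ak6, a nuclear adenylate kinase, share 73.8 and 56.5% of their exonic bases with each other. Taf9 was high where Ak6 was low: in wild-type control pools 1 to 4 Taf9 measured 26.67, 4.085, 5.359 and 23.02 CPM and Ak6 6.346, 30.99, 30.63 and 12.13 CPM. Of the 58 genes above 0.5 with an annotation match, 8 (13.8%) shared at least 50% of their exonic bases with another gene on the same strand, beside 1.08% of all genes at 10 CPM or above. Of these 8, 6 were led by wild-type control pool 1. How reads were divided between such genes was not tested.

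**Figure D5:**
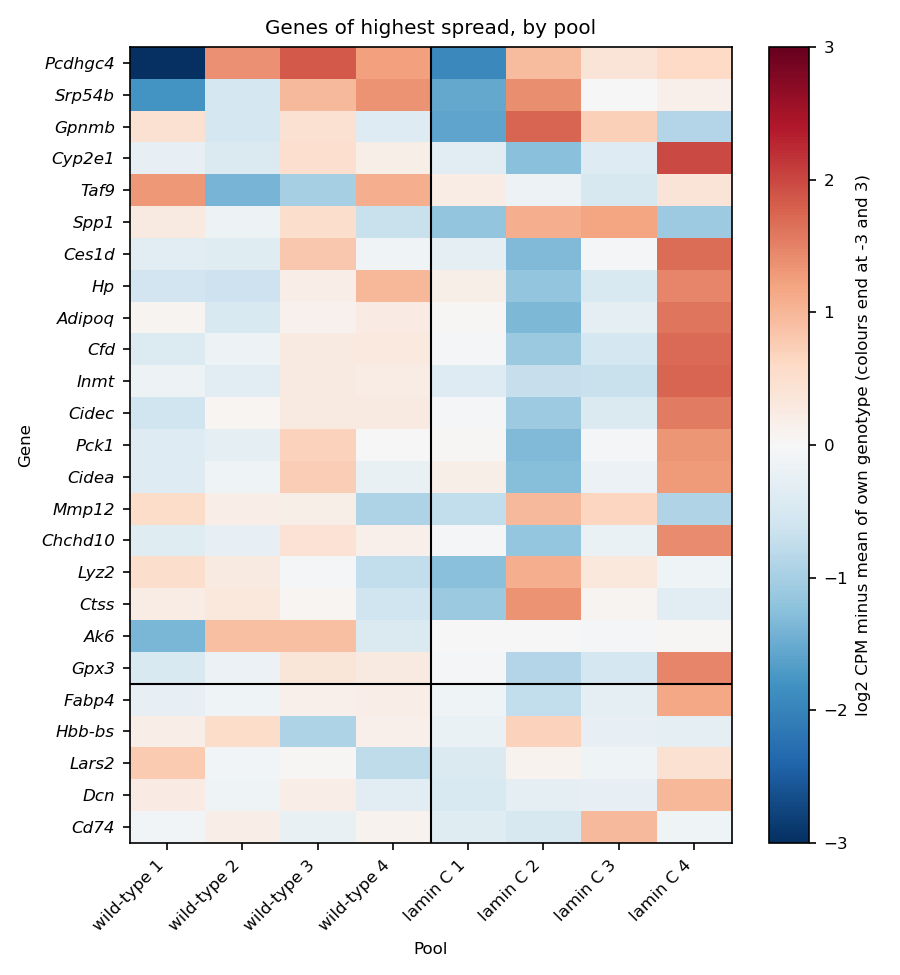
Deviation of log2 CPM from the mean of the pool's own genotype (colour, red high and blue low) for the 20 genes of highest spread and, below the line, 5 of highest spread at 100 CPM or above, with pools in columns. The adipocyte genes are red in lamin C-only control pool 4 and blue in pool 2, Gpnmb and Ctss are red in lamin C-only control pool 2, and Pcdhgc4 and Srp54b are blue in pool 1 of each genotype.

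At 100 CPM and above the most variable genes were Fabp4, Hbb-bs, a beta-globin, Lars2, the mitochondrial leucyl-tRNA synthetase, Dcn and Cd74, the invariant chain of MHC class II, with spreads of 0.599, 0.561, 0.519, 0.51 and 0.492. They did not share a pool. Fabp4 and Dcn were highest in lamin C-only control pool 4, at 432.7 and 303.6 CPM, Hbb-bs was highest in lamin C-only control pool 2, at 249.5 CPM, and Cd74 in lamin C-only control pool 3, at 241.6 CPM. Lars2 belongs to none of the marker lists and measured 360.8, 199.3, 215.8 and 124.2 CPM in wild-type control pools 1 to 4 and 178.4, 255.1, 217.1 and 330.2 CPM in lamin C-only control pools 1 to 4. Without lamin C-only control pool 4 the spread of Fabp4 was 0.263 and that of Dcn 0.221, and without lamin C-only control pool 3 that of Cd74 was 0.184. With the pool number removed as well as genotype, the spread of Hbb-bs was 0.37.

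The 20 genes of lowest spread lay between 0.0147 and 0.0256, and 6 of them were below their counting error. No endothelial marker was among them. Aplp2, an amyloid precursor-like membrane protein (ENSMUSG00000031996, chromosome 9, 31149557 to 31211815), measured 1675, 1643, 1656 and 1644 CPM in wild-type control pools 1 to 4 and 1597, 1620, 1579 and 1613 CPM in lamin C-only control pools 1 to 4. Tgoln1, a protein of the trans-Golgi network, had 428.7 to 446.2 CPM and a spread of 0.0185, and Calu, the secretory pathway protein calumenin, 472.9 to 495.7 CPM and 0.0211, or 0.0136 without lamin C-only control pool 1. At lower counts Ngly1, which removes glycans from misfolded proteins, had 45.69 to 47.57 CPM and a spread of 0.0215, below the 0.0375 expected from counting. The membership of this lowest set was unstable: with 1 pool left out, 7 to 12 of the 20 genes stayed among the 20.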

How the data were processed

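Polyadenylated RNA from pooled intimal lysates was made into strand-specific libraries, per the labels' protocols. For each gene the authors deposited an RSEM estimated count, in which a read that fits several genes is divided among them, and a log2 value normalised with limma for part of the genes. The submitters' processing notes name the build GRCm38 and list RSEM 1.2.28, STAR 2.7.10b, cutadapt 4.1, Trim Galore 0.6.10 and limma, with no roles. Which annotation release, strand setting and filters were used is not given in the sources used here.

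Control libraries, 8 in all, were taken by the genotype in their labels. Estimated counts were rounded, and CPM was computed with edgeR 4.0.16 (R 4.3.3) after TMM scaling over the 8 libraries (factors 0.979 to 1.02). Log2 CPM used a prior count of 2. TPM used merged exon lengths from GENCODE M21, which matched 22388 of 22430 identifiers and all but 7 members. The genotypes were described and not compared, so no test between them was made. The only criterion applied across pools was Dixon's, for single pools apart from their group. Pools are separate sets of animals, so spread is between pools and not between mice.

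Marker and family lists numbered 45, with 4 to 39 genes. Named genes were the 25 highest in TPM (mitochondrially encoded and cytosolic ribosomal protein genes left out), up to 6 per list with the highest level and those without a count, the 20 of highest and lowest spread at 10 CPM and 5 of each at 100 CPM, 5 per library furthest from its group, Lmna and Apoe, and 3 genes on each side of the 1 CPM level, with predicted genes left out. One of the 25 is not reported here. Fewer are named, and other list genes and pool leaders were named after their values were seen. The members and lists were chosen with earlier results of these data known. RefSeq windows (GRCm38.p6) matched 19 of the 25 most abundant genes.

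Alternatives were library totals without TMM, DESeq2 1.42.0 size factors, other level limits, prior count 0.5, unrounded counts, the deposited log2 values, edgeR's dispersion per gene, other gene lengths, a pool number term and leaving out each pool. Leaving out genes that share exons was chosen after seeing the data. The spread step was run on simulated data, where 197 of 200 genes given extra spread among 9221 were recovered. Those 200 genes shared a single high dispersion and all others a single low one, an easy contrast. The median spread of the others was 0.142, against 0.105 in the deposited data. How well it ranks the graded spreads of the deposited data was not tested. The 95% intervals of the spread reflect only its 6 degrees of freedom, and the floors cover counting error only.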

Additional observations from a re-analysis of the deposited data

Results flagged for a closer look

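Within each genotype, the highest and lowest of the 4 pools were compared with the gap to the next pool by Dixon's criterion at 95%. Of 437 groups of 4 examined, 33 (7.55%) had such a pool. Chance flags about 1 in 20 groups, but that rate does not apply here, since some of the genes were named for their high spread or their distance from the other pools.

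Wild-type control pool 1 had counts for 14328 genes, against 15188 to 15233 in the other wild-type pools. In that pool the basement membrane list summed to 7115 CPM (others 6422 to 6517), H2-D1 was at 2044 CPM (others 2243 to 2266), Vim at 3336 CPM (others 2989 to 3029) Itgam at 2.55 CPM (others 1.28 to 1.49) and Ndor1.2 at 6.78 CPM (others 0 to 0.728). In wild-type control pool 2 Robo4 was at 13.4 CPM (others 10.8 to 11.1) and Ednrb at 3.14 CPM (others 0.397 to 0.703). In wild-type control pool 3 Cidea was at 17.9 CPM (others 8.21 to 9.79), Ces1d at 12.3 CPM (others 5.45 to 6.51) and the hepatocyte list at 0.331 CPM (others 0). In wild-type control pool 4 Edn1 was at 273 CPM (others 405 to 409), Pi16 at 242 CPM (others 196 to 202) Klf2 at 469 CPM (others 318 to 339) and Hoxd10 at 0.639 CPM (others 0 to 0.0324).

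In lamin C-only control pool 4 the fibroblast list summed to 1359 CPM (others 926 to 987) and the capillary list, which holds Fabp4, to 952 CPM (others 683 to 719). In the same pool Dcn was at 304 CPM (others 111 to 128), Cyp2e1 at 80.4 CPM (others 8.42 to 16), Inmt at 48.4 CPM (others 8.79 to 10.8), F3 at 9.28 CPM (others 1.04 to 1.82), Snai2 at 7.64 CPM (others 6.57 to 6.69), Ednrb at 2.17 CPM (others 1.03 to 1.13), Cdh2 at 0.975 CPM (others 0.254 to 0.313) and Hoxc6 at 1.01 CPM (others 0.125 to 0.169). Epas1 and Nos3 were lower there, at 3043 CPM (others 3203 to 3232) and 1024 CPM (others 1206 to 1227). In lamin C-only control pool 2 Psap was at 1906 CPM (others 1651 to 1692), Hbb-bs at 249 CPM (others 128 to 134) and Ndor1.2 at 0.532 CPM (others 0). In lamin C-only control pool 3 Cd74 was at 242 CPM (others 87.1 to 113) and Ece1 at 2338 CPM (others 2465 to 2488), and in pool 1 the BMP and TGF-beta receptor list summed to 2211 CPM (others 2112 to 2115).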

How the results depend on the processing

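The number of genes at the level was 12165 with every scaling tried, 11394 to 12881 with limits of 2 and 0.5 CPM, 11522 when every library had to reach 1 CPM, and 12151 to 12183 with 1 pool left out. With the median transcript length 14 of the 25 most abundant genes stayed. The share of counts in the 100 most abundant genes was 24.3%, and 21.8% without mitochondrially encoded genes. The median spread was 0.105, and 0.125 over genes of at least 1 CPM, where 1 of the 20 genes of highest spread stayed among the 20. With 1 pool left out, 10 to 20 of the highest 20 stayed (fewest without lamin C-only control pool 4), as did 7 to 12 of the lowest 20, and the number of genes above 0.5 was 45 to 64. Of the lowest 20, 11 stayed without TMM and 13 with the deposited log2 values. Leaving out exon-sharing genes, chosen after seeing the data, kept 18 of the highest and 19 of the lowest 20. Each spread is computed gene by gene, so these numbers only count the genes that do not share exons. They say nothing about stability. No gene level among 1859 compared moved by more than the spread between pools, and 18 of 377 gene spreads moved. Where a value moved and no pool is named, the cause was not tested.

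With the pool number removed as a replicate block as well as genotype, the median spread was 0.0955, 65 genes exceeded 0.5, and 15 of the highest and 2 of the lowest 20 genes stayed. Deviations of same-numbered pools correlated across genes at 0.22, 0.13, 0.03 and -0.10 for pools 1 to 4, and wild-type pools 1 and 2, but not 3 and 4, matched best with their own number. The numbers were therefore not taken to pair the pools, and whether pools 1 or pools 2 of both genotypes share a source was not tested. The block leaves 3 degrees of freedom. No paired test was made, since the genotypes were not compared. For genes of 1 to 10 CPM the median spread was 0.298, beside 0.128 from counting, so counting error was a larger part of the total at low levels but not most of it.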

Other observations

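Genes of cell junctions and of endothelial signalling were also present. In the junction list 11 of 12 genes were members, with the tight junction protein genes F11r at a median of 397.8 TPM and Jam2 at 331 TPM, and Cdh2, the cadherin of mesenchymal cells and neurons, averaged 0.3178 CPM. All 10 BMP and TGF-beta receptor genes were members. Eng and Acvrl1, the co-receptor and receptor of BMP9 signalling in endothelium, had 500.9 and 320.7 TPM. All 12 Notch genes were members, and the ligands Jag1, Dll1 and Dll4 had 88.65, 93.68 and 34.36 TPM. In the lipid handling list 12 of 14 genes were members. Beside all these counts stand 54.2% of all genes.

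Markers of state were present as well, and the counts of members below stand beside 54.2% of all genes. The 12 immediate early and stress genes were all members and summed to 1091 to 1331 CPM, the 13 circadian clock genes to 1585 to 2143 CPM and the 12 interferon response genes to 395 to 485 CPM. Platelet, cardiomyocyte and cartilage or bone lists had 4, 2 and 3 of 8 members, with sums of 18.36 to 31.08, 9.656 to 20.87 and 13.87 to 29.4 CPM. The Schwann cell list had 3 of 6 members, the dendritic cell and neuron lists 2 of 6 each, the T and NK cell list 2 of 10, the B and plasma cell list 1 of 7 and the epithelial list 1 of 9.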
